A study of Mus musculus with 12 samples.

Results

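The flow by 5Aza interaction asks whether partial ligation of a carotid artery was accompanied by a different gene expression change in mice given the drug 5-aza-2'-deoxycytidine, called 5Aza here and known to inhibit DNA methyltransferases, than in mice given saline. For each gene it is the ligated left minus the unligated right artery under 5Aza, minus the same difference under saline, on a log2 scale. A positive value means that the left minus right difference was higher under 5Aza. All 12 of the 12 arrays in the series enter it, in 4 groups of 3, and 10596 genes could be tested.

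The groups were 5Aza LCA (ligated left carotid artery, 5Aza), 5Aza RCA (unligated right carotid artery, 5Aza), saline LCA (ligated left, saline) and saline RCA (unligated right, saline). All mice were male C57Bl6, 9 weeks old in the labels, and received daily intraperitoneal injections for 3 weeks, with 5Aza at 0.2 mg/kg/day or saline. After 2 weeks, 3 of 4 caudal branches were tied off on the left common carotid artery, which lowers flow in that artery and makes it disturbed, and the arteries were taken 7 days later. Each sample is RNA washed out of 3 pooled arteries, which enriches for endothelial cells, and was read on an Illumina mouse bead array. Every mouse was operated on. The series holds no sham or unligated left artery, so flow here is always left against right. The labels do not say which samples came from the same mice, and p-values measure the spread between these pools. In such flushed RNA, fewer cells of a type and less RNA per cell cannot be told apart.

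Endothelial cells sense the drag of flowing blood. Steady laminar flow keeps genes such as Klf2, Klf4 and Nos3 on, and disturbed flow lowers them, raises adhesion molecules and chemokines, and is followed by the entry of leukocytes into the vessel wall. DNA methyltransferases place methyl groups on CG dinucleotides, and methylation of a CG-rich promoter is generally associated with a silent gene. 5Aza is built into the DNA of dividing cells, where it traps these enzymes, so that methylation is lost as cells divide.

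The 3 saline LCA arrays were not alike. Replicates 2 and 4 correlated with each other at 0.971 over the genes tested, whereas replicate 1 correlated with them at 0.857 and 0.856. Replicate 1 correlated at 0.924, 0.94 and 0.931 with the 3 arrays of 5Aza LCA, at 0.915 to 0.929 with 5Aza RCA and at 0.927 to 0.934 with saline RCA. The standard deviation over genes of a ligated array minus its unligated mean was 0.57, 0.50 and 0.57 in 5Aza LCA, and 0.53, 0.93 and 0.94 in saline LCA, where the lowest is replicate 1. Within groups, the typical spread between arrays on the log2 scale (root mean variance) was 0.37 in 5Aza LCA, 0.36 in 5Aza RCA, 0.51 in saline LCA and 0.33 in saline RCA. The labels give no ground for leaving saline LCA replicate 1 out. Whether its label is right was not tested. Results are therefore given with all 12 arrays first, and most named genes and lists also without that array. Between 21443 and 23251 probes were detected per array.

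No gene passed the interaction test at a Benjamini-Hochberg adjusted p under 0.05 with limma: 0 of 10596, or 0%, with a smallest adjusted p of 0.206. At an unadjusted p under 0.05 there were 1012 genes (9.55%), of which 511 were positive (4.82%) and 501 negative (4.73%). Without saline LCA replicate 1, 1015 genes passed at an adjusted p under 0.05 (9.58%), 530 positive (5%) and 485 negative (4.58%). Leaving out any other single array gave 0 genes. The number of interacting genes therefore rests on 1 of the 12 arrays, as the plot of calls by left-out array shows.

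**Figure D1:**
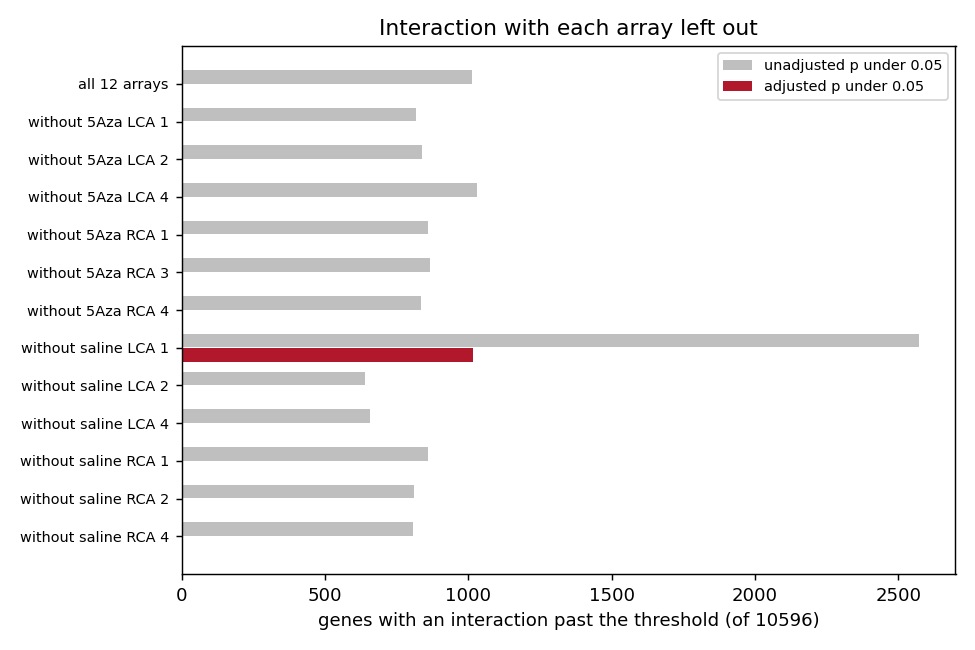
Number of genes with an interaction at an unadjusted p under 0.05 (grey bars) and at an adjusted p under 0.05 (red bars, limma), with all 12 arrays and with each left out in turn. Leaving out saline LCA replicate 1 gives 1015 genes, and leaving out any of the other 11 gives 0, after adjustment.

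The flow difference itself had a narrower range over genes under 5Aza. Its standard deviation over the 10596 genes was 0.45 under 5Aza and 0.71 under saline, or 0.91 under saline without replicate 1. The tests of flow within each treatment called 48 genes under 5Aza (0.453%) and 1227 under saline (11.6%), a difference in counts that is not itself a test of the interaction. Both sets of flow differences ran in the same direction on the whole: across the 10596 genes, which are not independent, their Pearson correlation was 0.575, and 0.544 without saline LCA replicate 1. No arrays are shared between these differences. The ligated and unligated groups did not overlap in 23.2% of genes under 5Aza and in 29.6% under saline. In 990 genes (9.34%) the ligated and unligated groups lay apart in both treatments, in the same order. In 69 genes (0.651%) they lay apart in opposite orders. With so few arrays per group, some genes take opposite orders without any effect. How many do so was not tested, so the 69 are not shown to exceed that number.

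**Figure D2:**
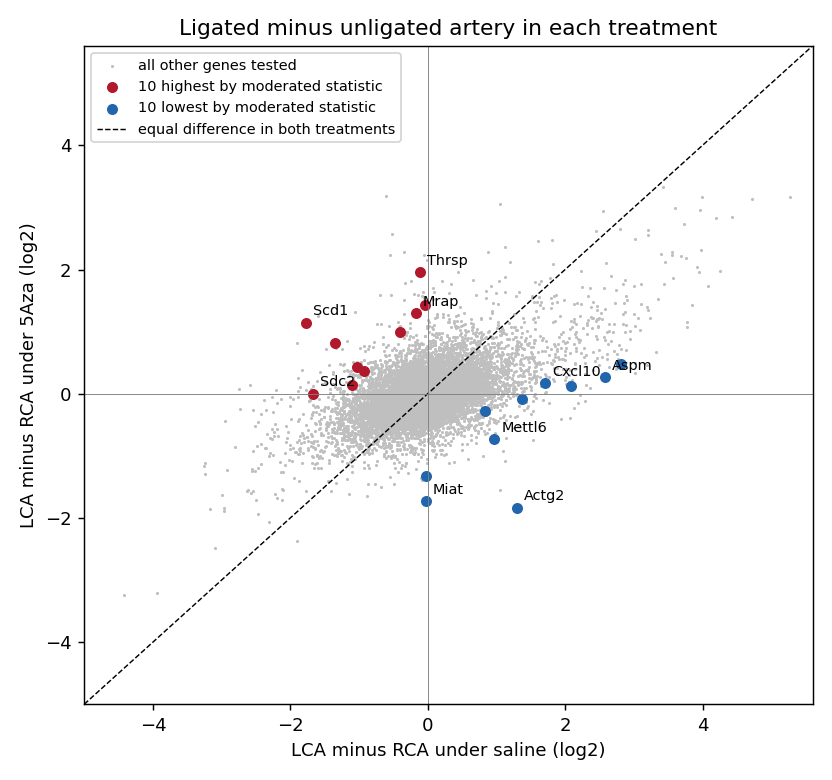
Ligated minus unligated log2 level under 5Aza against the same difference under saline, 1 point per gene tested. The points spread less along the 5Aza axis (standard deviation 0.45) than along the saline axis (0.71).

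The precision of 3 pools per group limits what can be seen. The median standard error of the interaction was 0.37 (quartiles 0.30 and 0.46), which gives a median half-width of the 95% interval of 0.81. For 3794 genes (35.8%) the 95% interval lay wholly between -1 and 1, so a difference of more than 2-fold between the flow changes lies outside the interval in those genes. In the other genes the interval reaches a 2-fold difference or more. The interaction exceeded 1 in absolute size in 881 genes, and in 1605 without saline LCA replicate 1.

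Genes of fat metabolism stood among the most positive interactions. Mrap, a membrane protein that carries melanocortin receptors to the cell surface and is made in adrenal and fat cells, had a log2 level of 5.41, 5.73 and 5.59 in 5Aza LCA against 4.33, 4.33 and 4.18 in 5Aza RCA, and 4.25, 4.28 and 4.21 in saline LCA against 4.43, 4.35 and 4.49 in saline RCA. All 3 arrays of 5Aza LCA lay above all other arrays, where no array detected the gene. Under 5Aza, Mrap rose with ligation at least 2.10-fold (limma, adjusted p = 0.0062), and its interaction was 1.47 (SE 0.21, 95% interval 1.00 to 1.94), the smallest adjusted p of all genes at 0.206. Thrsp, a nuclear regulator of fatty acid synthesis, had 5.74, 6.11 and 7.07 in 5Aza LCA against 4.31, 4.50 and 4.23 in 5Aza RCA, and 4.19, 4.17 and 4.25 in saline LCA against 4.28, 4.35 and 4.32 in saline RCA. The 5Aza LCA arrays were again the highest, with no overlap, and the gene was detected on 1 other array, of 5Aza RCA. Its flow difference under 5Aza was 1.96 (adjusted p = 0.0132), and its interaction was 2.07 (SE 0.38, adjusted p = 0.228). With saline LCA replicate 1 left out, the interactions were 1.48 for Mrap and 2.06 for Thrsp, close to those with all arrays.

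Scd1, the desaturase that makes monounsaturated fatty acids, differed in both treatments. Its log2 level was 9.07, 9.80 and 10.01 in 5Aza LCA against 8.47, 8.86 and 8.11 in 5Aza RCA, and 7.58, 6.01 and 6.02 in saline LCA against 8.43, 8.34 and 8.17 in saline RCA. It was higher in all ligated than unligated arrays under 5Aza and lower in all ligated arrays under saline, and saline LCA replicate 1 was nearest to the unligated arrays. Only the decrease under saline passed a flow test (-1.77, adjusted p = 0.0203). The interaction was 2.92 (SE 0.56, adjusted p = 0.228) and 3.44 without saline LCA replicate 1. Adipoq encodes adiponectin, a hormone secreted by fat cells. It had 6.04, 6.83 and 8.43 in 5Aza LCA against 4.38, 5.71 and 4.37 in 5Aza RCA, and 4.25, 4.29 and 4.28 in saline LCA against 4.39, 5.17 and 4.30 in saline RCA. The 3 arrays of 5Aza LCA were spread widely, and 1 array of 5Aza RCA, at 5.71, came near the lowest of them. Its interaction was 2.62 (SE 0.75, adjusted p = 0.418), and 2.61 without saline LCA replicate 1. Ces1d, a carboxylesterase with lipase activity in fat, had an interaction of 3.79 (SE 0.86), and of 3.82 without that array.

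Of a list of 20 adipocyte genes, 10 could be tested, and 9 of these had a positive interaction. Their median interaction was 1.59, against 0.04 over all genes. None passed after adjustment, and 5 were positive at an unadjusted p under 0.05, against 4.82% of all genes. Without saline LCA replicate 1, 3 of the 10 (Scd1, Thrsp and Ces1d) were called positive, against 5% of all genes, and the median was 1.36. Of the 10, 4 were detected on all 3 arrays of 5Aza LCA and of no other group, so they could enter the test only where they were high, and the count and median carry that choice. The mean log2 level of the tested members was 6.90, 7.36 and 8.26 in 5Aza LCA against 5.58, 6.41 and 5.43 in 5Aza RCA, and 5.34, 5.67 and 5.91 in saline LCA against 5.19, 6.02 and 5.46 in saline RCA. Levels in 5Aza LCA were the highest in the series and reached 8.26 in 1 pool, while the 5Aza RCA pool with the highest level, at 6.41, lay below all of them. Fat surrounds the carotid artery, and these genes are markers of its cells, of which Plin1, Lep, Retn, Cfd and Cidec were not among the genes tested. The part that fat cells in the flush had in these values was not tested.

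**Figure D3:**
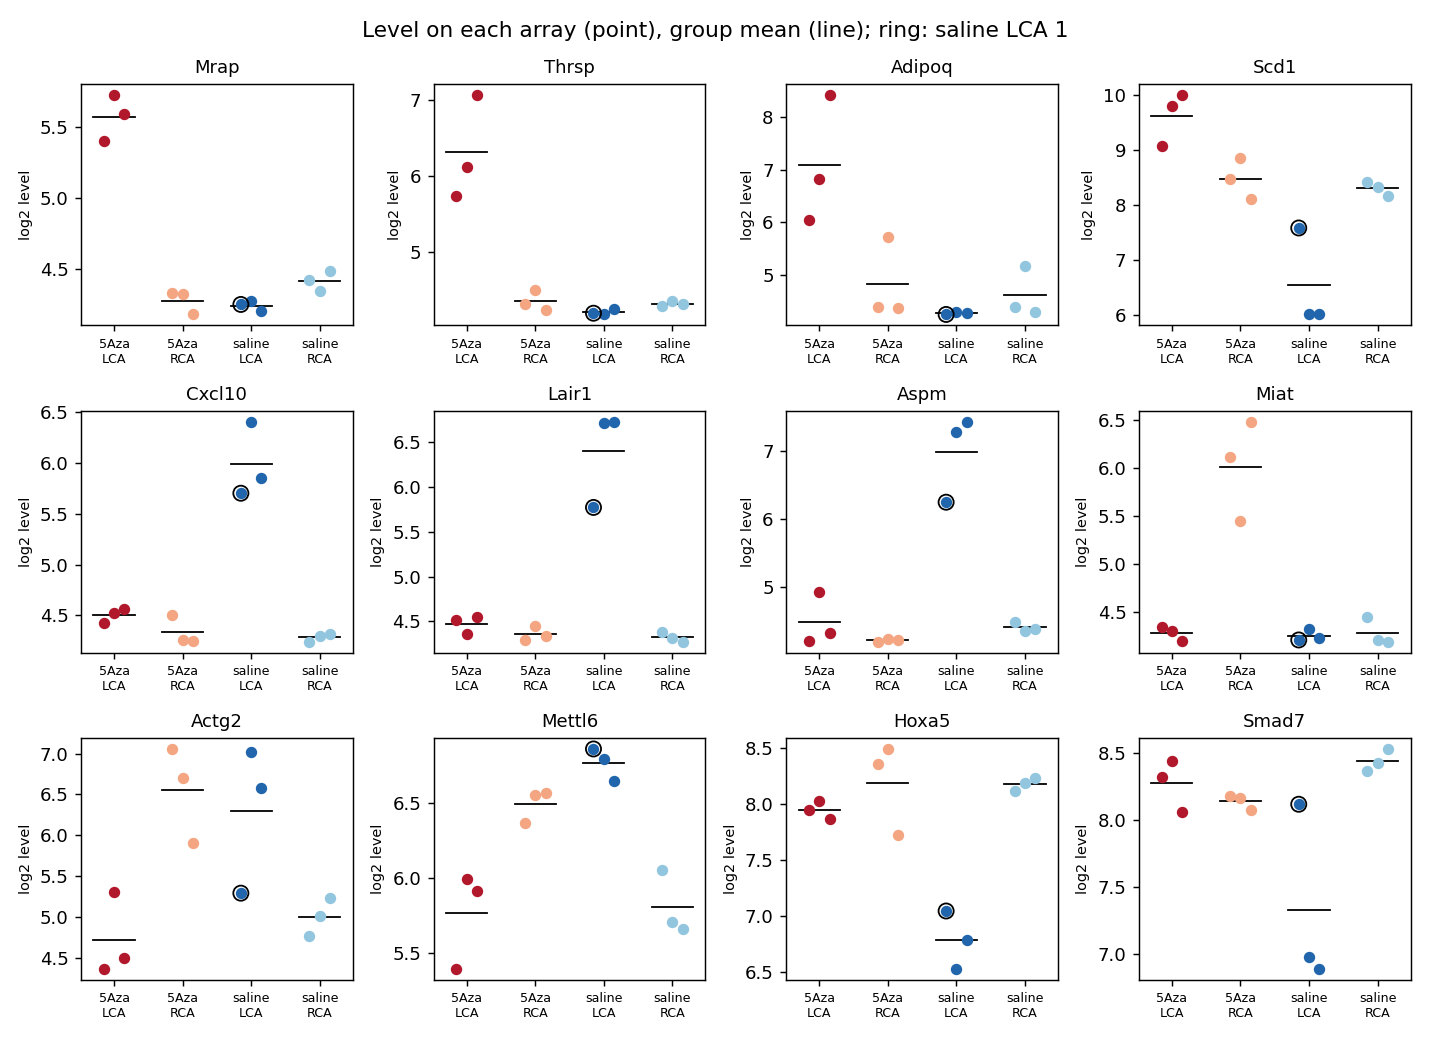
Log2 level of 12 genes on each of the 12 arrays, in the order 5Aza LCA, 5Aza RCA, saline LCA, saline RCA, with horizontal bars at the group means and a ring around saline LCA replicate 1. Mrap, Thrsp and Adipoq are highest in 5Aza LCA, Cxcl10, Lair1 and Aspm in saline LCA, and Miat in 5Aza RCA.

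Other genes with the most positive interactions belonged to varied functions. Cd209f, a lectin of the DC-SIGN family, had 5.78, 5.63 and 6.29 in 5Aza LCA against 4.26, 4.82 and 4.35 in 5Aza RCA, and 4.21, 4.19 and 4.33 in saline LCA against 4.23, 4.36 and 4.27 in saline RCA. It was higher in 5Aza LCA than in every other array, rose with ligation under 5Aza (1.42, adjusted p = 0.0183), and had an interaction of 1.47 (SE 0.29). Sdc2, which encodes the heparan sulphate proteoglycan syndecan-2, had 7.41, 7.61 and 7.34 in 5Aza LCA against 7.38, 7.57 and 7.40 in 5Aza RCA, and 6.63, 5.64 and 5.78 in saline LCA against 7.71, 7.85 and 7.52 in saline RCA. Both unligated groups and 5Aza LCA overlapped, and the 3 saline LCA arrays lay below them. Sdc2 fell with ligation under saline (-1.68, adjusted p = 0.00328), against a difference of 0.00 under 5Aza, and its interaction was 1.68 (SE 0.34, adjusted p = 0.245). A similar arrangement held for Sf3a1, a subunit of the spliceosome, with flow differences of 0.14 under 5Aza and -1.10 under saline and an interaction of 1.24. Pcdhga10, a gamma-protocadherin of a gene cluster whose members share exons, had flow differences of 0.44 under 5Aza and -1.02 under saline (interaction 1.46). Dhrs7, a short-chain dehydrogenase, had 0.37 under 5Aza and -0.93 under saline (interaction 1.29). Pogk, a KRAB-domain protein derived from a transposon, had 1.00 under 5Aza and -0.41 under saline (interaction 1.41). The decreases under saline of Sf3a1, Pcdhga10 and Dhrs7 passed the flow test, and none of these 4 genes passed it under 5Aza. When saline LCA replicate 1 was left out, the interactions of these 6 genes lay between 1.16 (Dhrs7) and 1.98 (Sdc2), and all passed.

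The most negative interactions included genes of inflammation and cell division that were on in saline LCA. Cxcl10, an interferon-inducible chemokine that draws T cells, had 4.43, 4.52 and 4.57 in 5Aza LCA against 4.51, 4.26 and 4.25 in 5Aza RCA, and 5.70, 6.41 and 5.85 in saline LCA against 4.24, 4.29 and 4.32 in saline RCA. The saline LCA arrays were above all others with no overlap, and replicate 1 was the lowest of them. Cxcl10 rose with ligation under saline at least 2.80-fold (adjusted p = 0.000934), and its flow difference under 5Aza was 0.17 (adjusted p = 0.767). Its interaction was -1.54 (SE 0.27, 95% interval -2.13 to -0.94, adjusted p = 0.228), and -1.68 without saline LCA replicate 1. Lair1, an inhibitory collagen receptor of leukocytes, had 4.52, 4.36 and 4.55 in 5Aza LCA against 4.29, 4.45 and 4.33 in 5Aza RCA, and 5.77, 6.72 and 6.73 in saline LCA against 4.38, 4.32 and 4.27 in saline RCA. Here too saline LCA stood alone. Lair1 rose under saline at least 3.74-fold (adjusted p = 0.000934), and its interaction was -1.96 (SE 0.33, adjusted p = 0.228), or -2.28 without replicate 1. B4galnt1, an enzyme of ganglioside synthesis, rose under saline at least 5.87-fold and had an interaction of -2.34 (SE 0.52), or -2.65 without that array. Napsa, an aspartic protease, rose by 1.37 under saline (adjusted p = 0.00599) and had an interaction of -1.45 (SE 0.31), or -1.70 without it.

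Markers of macrophages and monocytes also had mostly negative interactions, but unlike these genes they rose with ligation in both treatments. The median flow difference of the tested markers was 1.97 under 5Aza and 3.55 under saline. Of 24 listed markers 17 were tested, 16 had a negative interaction, and the median was -1.57 against 0.04 over all genes. No member was detected on all 12 arrays and 11 were detected on all 3 arrays of ligated groups only, so the members tested entered through the groups where they were high. None passed after adjustment, and 6 were negative at an unadjusted p under 0.05, against 4.73% of all genes. Without saline LCA replicate 1, 11 of the 17 were called negative, against 4.58% of all genes, and the median was -2.24. Their mean log2 level was 6.63, 6.49 and 7.37 in 5Aza LCA against 4.84, 5.70 and 4.52 in 5Aza RCA, and 6.60, 8.50 and 8.70 in saline LCA against 4.31, 4.76 and 5.12 in saline RCA. It was higher in all ligated than in all unligated arrays, and saline LCA replicate 1 lay within the range of the 5Aza LCA arrays, below the other 2 saline LCA arrays. Aif1, a calcium-binding protein of macrophages, had 8.70, 8.66 and 8.99 in 5Aza LCA against 5.54, 6.15 and 5.19 in 5Aza RCA, and 8.79, 10.41 and 10.34 in saline LCA against 4.28, 4.53 and 4.90 in saline RCA. It rose with ligation under 5Aza (3.16, adjusted p = 0.00717) and under saline (5.28, adjusted p = 6.81e-05). Its interaction was -2.11 (SE 0.56, adjusted p = 0.371), and -2.64 without saline LCA replicate 1. C1qa, a chain of complement C1q made by macrophages, rose under saline at least 7.22-fold (adjusted p = 0.00647), and its interaction was -2.06 (SE 0.72), or -2.63 without that array. The part that the number of macrophages had in the interactions of other genes was not tested.

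Genes of MHC class II presentation had a median interaction of -1.78 over 9 tested of 12 listed members, with 7 negative, 6 of them at an unadjusted p under 0.05 (4.73% of all genes were negative at that level). With saline LCA replicate 1 left out, the median was -2.11 and 2 were called negative, against 4.58% of all genes. The mean log2 level of the tested members was 6.88, 7.33 and 7.97 in 5Aza LCA against 7.51, 8.08 and 8.22 in saline LCA. In the unligated arteries it was 6.73, 7.35 and 5.96 in 5Aza RCA against 6.03, 5.58 and 5.88 in saline RCA. H2-Ab1, the beta chain of a class II molecule, had 8.88, 9.20 and 9.92 in 5Aza LCA against 8.35, 9.01 and 7.31 in 5Aza RCA, and 9.39, 10.29 and 10.44 in saline LCA against 7.39, 6.77 and 7.28 in saline RCA. All ligated saline arrays lay above the unligated ones, and the 5Aza groups overlapped. H2-Ab1 rose under saline (2.89, adjusted p = 0.00392), and the flow difference under 5Aza was 1.11 (adjusted p = 0.325). The 5Aza minus saline difference of H2-Ab1 was 1.08 in unligated arteries (limma, adjusted p = 0.857) and -0.71 in ligated ones (adjusted p = 0.388). Its interaction thus holds a higher unligated mean under 5Aza as well as a lower ligated mean, and neither difference passed. The interaction was -1.78 (SE 0.60), and -2.11 without that array. Among neutrophil markers only 4 of 12 were tested. Of the 4, 2 were detected on all 3 arrays of saline LCA and of no other group. Those 2 entered through the group where they were high, and the median carries that choice. The median of the 4 was -0.77, or -1.12 without saline LCA replicate 1. It turned to 0.41 where genes had to be detected on all 12 arrays, which left 1 of them. S100a9, an alarmin of neutrophils, had 4.19, 7.14 and 4.86 in 5Aza LCA. It rose under saline at least 11.6-fold and had an interaction of -2.70 (SE 1.09), or -3.65 without saline LCA replicate 1. Il1b, the gene of interleukin-1 beta, rose at least 7.13-fold under saline and had an interaction of -2.67 (SE 0.90), or -3.71 without that array. The 18 tested genes of endothelial inflammation and adhesion, to which Il1b and Cxcl10 belong, had a median of -0.27, or -0.12 without that array, with 10 negative and 8 positive, and its sign turned in 3 of the alternatives. Of the 18, 2 were detected on all 3 arrays of saline LCA and of no other group.

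Cell cycle genes were on average highest in saline LCA, as Cxcl10 and Lair1 were. Aspm, a protein of the mitotic spindle poles, had 4.21, 4.93 and 4.33 in 5Aza LCA against 4.20, 4.24 and 4.23 in 5Aza RCA, and 6.25, 7.29 and 7.43 in saline LCA against 4.49, 4.36 and 4.39 in saline RCA. Saline LCA stood above all other arrays, of which 2 detected the gene. Aspm rose by 2.57 under saline (adjusted p = 0.000934), with a flow difference of 0.26 under 5Aza (adjusted p = 0.756). Its interaction was -2.31 (SE 0.41, 95% interval -3.20 to -1.42, adjusted p = 0.228), and -2.68 without saline LCA replicate 1. Of 25 listed genes of the cell cycle and mitosis, 18 were tested and 17 had a negative interaction. At an unadjusted p under 0.05, 7 were negative, against 4.73% of all genes. The median was -1.04, and without saline LCA replicate 1 it was -1.28, with 9 called negative, against 4.58% of all genes, and none positive. Of the 18, 5 were detected on all 3 arrays of saline LCA and of no other group and so entered through the group where they were high. The mean log2 level of the list was 5.33, 5.31 and 5.62 in 5Aza LCA against 5.23, 5.36 and 5.29 in 5Aza RCA, and 5.74, 7.16 and 6.61 in saline LCA against 5.40, 5.26 and 5.54 in saline RCA. All 3 saline LCA arrays were the highest, and the 5Aza LCA arrays overlapped the unligated ones. Birc5, an inhibitor of apoptosis that also acts in mitosis, had flow differences of 0.31 under 5Aza and 2.06 under saline and an interaction of -1.76 (SE 0.48, -2.25 without that array). Aurka, a mitotic kinase, had -0.03 under 5Aza and 2.21 under saline and an interaction of -2.24 (SE 0.71, -3.02 without it). Both rose under saline at an adjusted p of 0.00665 and 0.0213. The macrophage markers were at their highest in the same 2 saline LCA arrays as the cell cycle genes, and the part of one in the other was not tested.

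**Figure D4:**
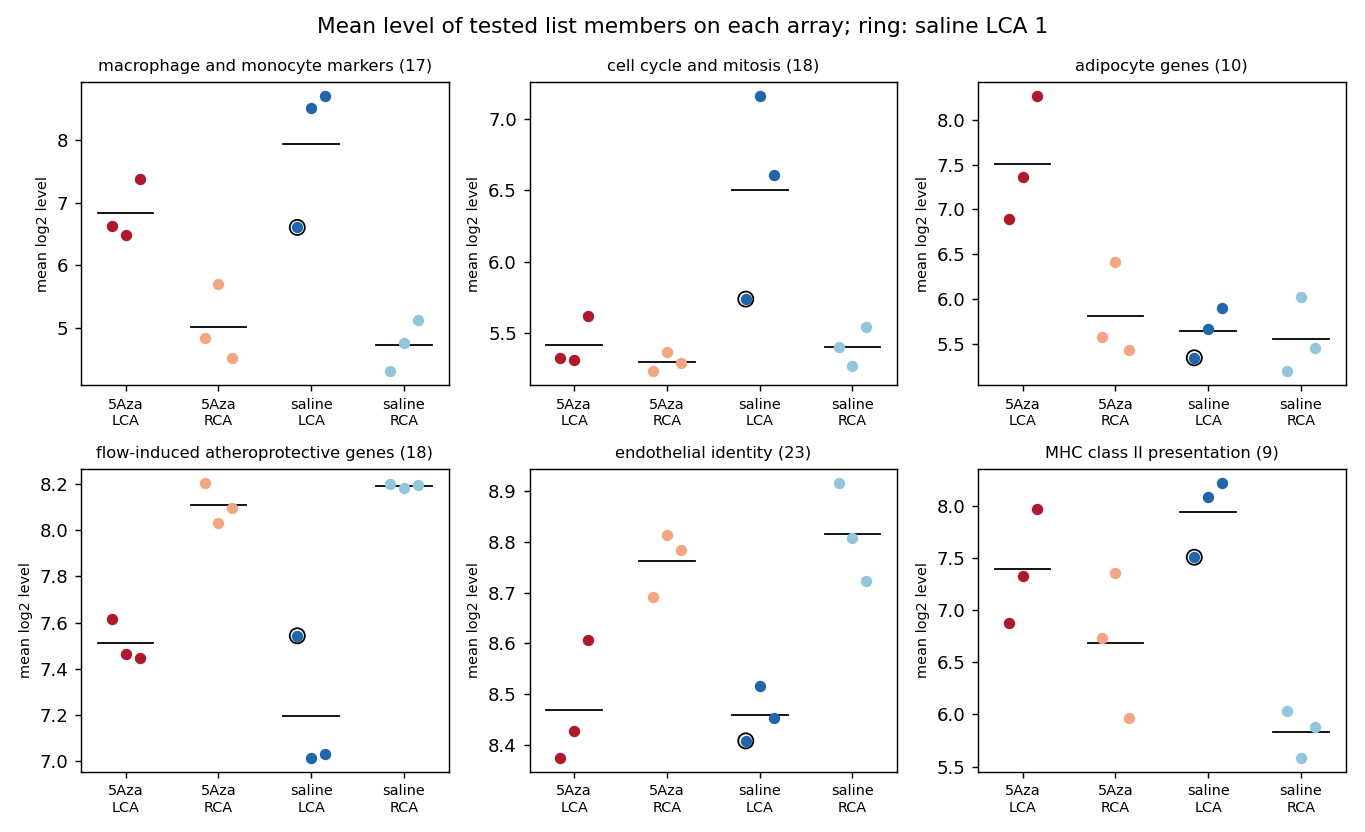
Mean log2 level of the tested members of 6 gene lists on each of the 12 arrays, in the order 5Aza LCA, 5Aza RCA, saline LCA, saline RCA, with a ring around saline LCA replicate 1. Adipocyte genes are highest in 5Aza LCA (6.90 to 8.26), and macrophage genes are highest in saline LCA replicates 2 and 4 (8.50 and 8.70).

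In Miat and Sirt5 the difference lay between the 5Aza arteries. Miat, a long non-coding RNA, had 4.34, 4.31 and 4.20 in 5Aza LCA against 6.11, 5.45 and 6.48 in 5Aza RCA, and 4.21, 4.32 and 4.23 in saline LCA against 4.45, 4.21 and 4.19 in saline RCA. It was detected in all 3 arrays of 5Aza RCA, none of 5Aza LCA, 1 of saline LCA and none of saline RCA, and the 5Aza RCA values lay above all others. Under 5Aza it fell with ligation at least 2.85-fold (adjusted p = 0.012). Its interaction was -1.70 (SE 0.33, 95% interval -2.41 to -0.99, adjusted p = 0.228), and -1.73 without saline LCA replicate 1. Sirt5, a mitochondrial desuccinylase, had 4.48, 4.57 and 4.40 in 5Aza LCA against 5.86, 5.54 and 6.02 in 5Aza RCA, and 4.90, 4.35 and 4.42 in saline LCA against 4.39, 4.67 and 4.70 in saline RCA. The 5Aza LCA arrays lay below 5Aza RCA, and the saline groups overlapped. It fell with ligation under 5Aza (-1.33, adjusted p = 0.0202) and had a flow difference of -0.03 under saline, with an interaction of -1.30 (SE 0.28, -1.12 without that array). Mms19, a factor of iron-sulphur protein assembly, rose instead with ligation under saline (0.83, adjusted p = 0.0143), with -0.29 under 5Aza, and had an interaction of -1.11 (SE 0.24, -1.05 without it).

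Since the enzymes that 5Aza traps act on CG dinucleotides, the promoters of 3 leading genes with different patterns are shown, as the 250 bases upstream of the start site in RefSeq on GRCm38.p6, 5′ to 3′ on the gene's strand, with CG in capitals. Thrsp was high in 5Aza LCA, Cxcl10 in saline LCA and Miat in 5Aza RCA.
Thrsp, chr7:97417551-97417800, minus strand: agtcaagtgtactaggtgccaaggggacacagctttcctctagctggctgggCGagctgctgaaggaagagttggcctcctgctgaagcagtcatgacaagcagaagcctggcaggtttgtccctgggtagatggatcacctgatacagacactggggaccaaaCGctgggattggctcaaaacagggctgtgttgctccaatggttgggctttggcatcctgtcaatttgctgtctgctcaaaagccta
Cxcl10, chr5:92348890-92349139, minus strand: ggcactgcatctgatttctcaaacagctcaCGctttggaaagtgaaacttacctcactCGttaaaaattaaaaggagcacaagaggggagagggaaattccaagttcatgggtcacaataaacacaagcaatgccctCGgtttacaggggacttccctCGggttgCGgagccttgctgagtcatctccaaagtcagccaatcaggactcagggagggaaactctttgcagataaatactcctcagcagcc
Miat, chr5:112228949-112229198, minus strand: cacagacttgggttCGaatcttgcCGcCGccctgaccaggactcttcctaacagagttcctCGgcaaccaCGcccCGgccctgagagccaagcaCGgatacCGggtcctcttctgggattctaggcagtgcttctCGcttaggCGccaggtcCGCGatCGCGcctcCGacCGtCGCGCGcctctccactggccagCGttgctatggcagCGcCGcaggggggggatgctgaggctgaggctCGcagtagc
The motif counted was CG, which reads the same on both strands. The Thrsp window holds 2, the Cxcl10 window 5 and the Miat window 23. Of 10942 promoter windows of the same length, 98.5% hold at least 1 CG, the median is 15, and the shares with as many or fewer are 7.83% for Thrsp, 18.5% for Cxcl10 and 77.3% for Miat. Of the 20 leading genes 13 have a window in the table, too few for a comparison of CG content with other genes. Methylation was not measured on these arrays, so the counts describe the sequence alone.

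Actg2, the smooth muscle gamma-actin, had the most negative interaction of the leading genes. Its log2 level was 4.36, 5.30 and 4.50 in 5Aza LCA against 7.06, 6.70 and 5.91 in 5Aza RCA, and 5.29, 7.02 and 6.57 in saline LCA against 4.76, 5.02 and 5.23 in saline RCA. Under 5Aza all ligated arrays lay below the unligated ones, and under saline all ligated arrays lay above, with 5.29 and 5.23 in the nearest pair. Neither flow test passed, with differences of -1.83 under 5Aza (adjusted p = 0.0999) and 1.29 under saline (adjusted p = 0.0695). The interaction was -3.13 (SE 0.61, adjusted p = 0.228), and -3.63 without saline LCA replicate 1. The 13 tested of 16 smooth muscle contractile genes had a median of -0.38. Of these, 10 were negative, 3 of them at an unadjusted p under 0.05, against 4.73% of all genes. Without that array the median was -0.58 and 2 were called negative, against 4.58% of all genes. Mylk, the kinase that starts smooth muscle contraction, had an interaction of -1.10 (SE 0.46), or -1.45 without that array. Smooth muscle cells lie beneath the endothelium, and their share of each flush was not measured.

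The 69 genes with opposite, non-overlapping orders split into 38 that were higher in ligated arteries under 5Aza and lower under saline (0.359%), and 31 of the reverse kind (0.293%). Neither number was compared with what arises without any effect, so the genes named below are a description. Of the 69, 47 were detected on all 12 arrays, and 32 were called without saline LCA replicate 1, against 9.58% of all genes. The 69 were picked by orders that go with a large interaction in the same arrays, so the 32 are not independent evidence. In 8 of them, 1 of the treatments had neither group detected on all 3 arrays, so that its order is one of values near background. Adipoq is such a gene: it was detected on 1 of the 6 saline arrays. By size of interaction the first of these kinds is led by Scd1, then, leaving Adipoq aside, Dync2h1 (2.38, SE 0.54), Amy2a5 (2.20, SE 0.54) and Coch (2.15, SE 0.43). Coch, which encodes the extracellular protein cochlin, had 5.99, 6.76 and 6.45 in 5Aza LCA against 5.53, 5.89 and 5.35 in 5Aza RCA, and 4.94, 4.24 and 4.22 in saline LCA against 5.23, 6.01 and 6.19 in saline RCA. Only 1 of 3 saline LCA arrays detected it. Its decrease under saline passed the flow test (-1.34, adjusted p = 0.0213), and the difference under 5Aza did not (0.81, adjusted p = 0.319). Dync2h1, the heavy chain of the dynein that works in cilia, had 7.58, 6.34 and 6.09 in 5Aza LCA against 5.24, 5.31 and 5.54 in 5Aza RCA, and 5.14, 5.48 and 5.63 in saline LCA against 5.90, 7.16 and 6.38 in saline RCA. Its orders were opposite, and the highest value was that of 5Aza LCA replicate 1. Amy2a5, an amylase with near-identical copies that a probe may not tell apart, had flow differences of 0.72 under 5Aza and -1.48 under saline. When saline LCA replicate 1 was left out, the interactions were 2.39 for Coch, 2.24 for Dync2h1 and 2.65 for Amy2a5.

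The reverse kind was led by Actg2, then Mettl6, a tRNA methyltransferase. Mettl6 had 5.39, 5.99 and 5.91 in 5Aza LCA against 6.37, 6.55 and 6.57 in 5Aza RCA, and 6.87, 6.80 and 6.65 in saline LCA against 6.05, 5.70 and 5.66 in saline RCA. The unligated arrays lay above the ligated ones under 5Aza and below them under saline, and saline LCA replicate 1 was the highest of its group. Mettl6 rose with ligation under saline (0.97, adjusted p = 0.0148), its difference under 5Aza was -0.73 (adjusted p = 0.173), and its interaction was -1.70 (SE 0.28, 95% interval -2.31 to -1.09, adjusted p = 0.228). Without that array it was -1.65, so its value did not turn on replicate 1. Next came Fes, a tyrosine kinase of myeloid and endothelial cells (-1.42, SE 0.36), Dcaf6, a substrate receptor of a CUL4 ubiquitin ligase (-1.37, SE 0.31), and the RNA helicase gene Helz (-1.33, SE 0.31). With saline LCA replicate 1 left out these were -1.32 for Fes, -1.45 for Dcaf6 and -1.51 for Helz.

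Flow-responsive genes of the endothelium were divided. Of 23 genes held to protect against atherosclerosis under laminar flow, 18 were tested, with a median interaction of 0.72 against 0.04 over all genes. There were 12 positive values, 5 at an unadjusted p under 0.05, and 6 negative, 2 at that level. Over all genes these shares were 4.82% and 4.73%. With saline LCA replicate 1 left out, the median was 1.10 and 9 were called positive (against 5% of all genes) and 2 negative, so the members did not all lie on the same side. Smad7, an inhibitor of TGF-beta signalling, had 8.33, 8.44 and 8.06 in 5Aza LCA against 8.18, 8.17 and 8.08 in 5Aza RCA, and 8.12, 6.98 and 6.89 in saline LCA against 8.37, 8.43 and 8.53 in saline RCA. The saline LCA arrays 2 and 4 lay more than 1 unit below every other array, and saline LCA replicate 1 lay among the 5Aza arrays. Smad7 fell with ligation under saline (-1.11, adjusted p = 0.0299), with 0.14 under 5Aza (adjusted p = 0.887). Its interaction was 1.25 (SE 0.39), and 1.65 without that array. Klf4, a transcription factor induced by laminar flow, had 8.10, 7.96 and 8.08 in 5Aza LCA against 9.26, 8.46 and 8.52 in 5Aza RCA, and 7.36, 6.24 and 6.74 in saline LCA against 8.19, 8.74 and 8.69 in saline RCA. The ligated arrays lay below the unligated ones in both treatments, saline LCA replicates 2 and 4 lowest. It fell under saline (-1.76, adjusted p = 0.00687), with -0.70 under 5Aza (adjusted p = 0.369) and an interaction of 1.06 (SE 0.42, 1.35 without that array).

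Nos3, the endothelial nitric oxide synthase, had 7.38, 7.27 and 7.06 in 5Aza LCA against 8.11, 8.26 and 8.27 in 5Aza RCA, and 7.82, 6.08 and 6.00 in saline LCA against 8.31, 8.68 and 8.56 in saline RCA. Ligated arrays were again the lower ones in both treatments, with no overlap. It fell under saline (-1.89, adjusted p = 0.0148), its difference under 5Aza was -0.97 (adjusted p = 0.335), and its interaction was 0.91 (SE 0.54), or 1.51 without saline LCA replicate 1. Klf2, the other laminar flow factor, fell in both treatments, with differences of -2.36 under 5Aza (adjusted p = 0.0229) and -1.91 under saline (adjusted p = 0.0134). Its interaction was -0.45 (SE 0.53, 95% interval -1.62 to 0.71) and did not pass without that array either (-0.59). The negative members called without replicate 1 were Hmox1, heme oxygenase 1 (-2.36 with all arrays, -3.34 without it), and Cxcr4, a chemokine receptor also made by leukocytes (-2.35 with all arrays, -3.32 without it). The other called positive members were Thbd, Klk10, Sod3, Cyp1b1, Slc9a3r2, Acvrl1 and Smad7, next to Klf4 and Nos3. With all arrays these 7 lay between 0.65 (Thbd, thrombomodulin) and 2.08 (Cyp1b1, a cytochrome P450), and without replicate 1 between 1.05 (Thbd) and 3.01 (Sod3, the extracellular superoxide dismutase).

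Endothelial identity genes, which served to check the labelled cell type, were detected on all 12 arrays in 22 of 23 tested members. Their median interaction was 0.12, with 14 positive and 9 negative, and 0.09 without saline LCA replicate 1. Their mean log2 level was 8.37, 8.43 and 8.61 in 5Aza LCA against 8.69, 8.81 and 8.78 in 5Aza RCA. Under saline it was 8.41, 8.52 and 8.45 in ligated against 8.92, 8.81 and 8.72 in unligated arteries. Every ligated array thus lay below every unligated array. The part that the endothelial share of the RNA had in the flow differences was not tested. Vwf, the gene of von Willebrand factor, had 9.70, 9.96 and 9.88 in 5Aza LCA against 10.28, 10.02 and 10.01 in 5Aza RCA, and 9.57, 9.15 and 8.94 in saline LCA against 10.13, 10.25 and 10.08 in saline RCA. The ligated groups lay below the unligated ones in both treatments. It fell under saline (-0.93, adjusted p = 0.0147), with -0.26 under 5Aza, and its interaction was 0.67 (SE 0.27) and 0.85 without that array. Cdh5, the endothelial cadherin, had flow differences of -0.32 under 5Aza and 0.02 under saline and an interaction of -0.35 (SE 0.23), or -0.42 without that array. Sox18, the member with the smallest interaction p, had flow differences of 0.67 under 5Aza and -0.10 under saline. Its interaction was 0.77 (SE 0.29), or 0.59 without that array.

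A list of 9 genes was recalled from the published study as silenced by disturbed flow and restored by 5Aza. The study is likely to have chosen them on samples such as these, so their direction is not independent evidence. All 9 were tested and all had a positive interaction, with a median of 0.61. None passed, and 2 were positive at an unadjusted p under 0.05, against 4.82% of all genes. Without saline LCA replicate 1 the median was 0.94 and 4 were called positive (Hoxa5, Tmem184b, Acvrl1 and Pkp4), against 5% of all genes. Hoxa5, a homeobox transcription factor, had 7.94, 8.03 and 7.87 in 5Aza LCA against 8.36, 8.49 and 7.72 in 5Aza RCA, and 7.05, 6.53 and 6.79 in saline LCA against 8.12, 8.19 and 8.23 in saline RCA. The 3 saline LCA arrays lay below all others, and 5Aza LCA overlapped 5Aza RCA. Hoxa5 fell with ligation under saline (-1.39, adjusted p = 0.00524), with a difference of -0.25 under 5Aza (adjusted p = 0.676). Its interaction was 1.14 (SE 0.30, 95% interval 0.48 to 1.81, adjusted p = 0.371), and 1.27 without that array. Acvrl1, the endothelial receptor ALK1, had 6.89, 6.72 and 6.92 in 5Aza LCA against 7.46, 7.14 and 6.72 in 5Aza RCA, and 6.87, 6.27 and 6.16 in saline LCA against 7.68, 7.61 and 7.83 in saline RCA. The groups overlapped under 5Aza and lay apart under saline. It fell under saline (-1.28, adjusted p = 0.00953) and had an interaction of 1.01 (SE 0.33), or 1.23 without replicate 1.

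The other 7 of these genes had interactions between 0.43 (Zfp46, a zinc finger protein) and 0.75 (Dok4, a docking protein of tyrosine kinases), with Cmklr1, the receptor of chemerin, at 0.62 and the widest standard error, 0.90. Pkp4, a plakophilin of cell junctions, had 0.60, Spry2, an inhibitor of growth factor signalling, 0.61, the transcription factor Klf3 0.48 and the membrane protein Tmem184b 0.46. When saline LCA replicate 1 was left out, these 7 lay between 0.64 (Klf3) and 1.25 (Cmklr1). The 13 tested of 26 Hox genes had a median of 0.59, 10 of them positive. Without that array it was 0.38, and 1 was called positive (Hoxa5), against 5% of all genes. TGF-beta, BMP and mesenchymal transition factors had a median of 0.09 over 23 tested of 30, and its sign turned in 2 alternatives. Without saline LCA replicate 1, the median was 0.20, and 7 of them were called positive and 1 negative, against 5% and 4.58% of all genes. Twist1, a transcription factor of mesenchymal transition, had an interaction of 1.34 (SE 0.41, 1.69 without that array). It fell with ligation under saline (-1.68, adjusted p = 0.00781), and its difference under 5Aza was -0.34.

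Lists tied to DNA methylation itself had medians between -0.05 and 0.31. The 14 tested of 23 writers, erasers and readers of DNA methylation had a median of -0.05 with 7 positive and 7 negative, and -0.14 without saline LCA replicate 1. Dnmt1, the maintenance methyltransferase and a target of 5Aza, had 8.73, 8.69 and 9.00 in 5Aza LCA against 8.84, 8.76 and 8.63 in 5Aza RCA, and 8.69, 8.95 and 8.85 in saline LCA against 8.69, 8.60 and 8.64 in saline RCA. Its 2 groups overlapped under 5Aza and lay narrowly apart under saline, and its interaction was -0.12 (SE 0.22, 95% interval -0.61 to 0.36), or -0.19 without that array. Uhrf1, which brings Dnmt1 to replicating DNA and is made in dividing cells, had -1.98 (SE 0.84) and was called without saline LCA replicate 1 (-2.73). Of 20 germline genes that methylation keeps silent elsewhere, 4 were tested, with a median of -0.03 that turned sign in 8 alternatives, to 0.10 without saline LCA replicate 1. The other 16 were not among the genes tested. The 19 tested of 27 imprinted genes had a median of 0.31, 13 positive, and 0.24 without that array, with 4 called positive and 1 negative, against 5% and 4.58% of all genes. Peg3, an imprinted zinc finger gene, had 7.03, 7.76 and 6.94 in 5Aza LCA against 7.10, 7.22 and 7.21 in 5Aza RCA, and 7.55, 5.04 and 5.62 in saline LCA against 8.23, 7.67 and 7.42 in saline RCA. Both pairs of groups overlapped. Its interaction was 1.77 (SE 0.72), and 2.51 without saline LCA replicate 1, which lay within the range of the unligated saline arrays.

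Interferon-stimulated and viral sensing genes, which 5Aza raises in some tumour cells, had a median interaction of -0.30 over 22 tested of 28, with 17 negative and 5 positive. With saline LCA replicate 1 left out, it was -0.27, and 1 of the 22 was called, negative, against 4.58% of all genes. Stat2, a transcription factor of the interferon response, had 5.77, 5.48 and 6.07 in 5Aza LCA against 5.22, 6.53 and 5.79 in 5Aza RCA, and 5.74, 6.49 and 6.85 in saline LCA against 5.61, 4.77 and 5.12 in saline RCA. Under saline the ligated arrays were all higher, and under 5Aza the groups overlapped. Its interaction was -1.27 (SE 0.52), and -1.58 without that array. The 18 tested of 20 genes of the p53 and DNA damage response had a median of -0.07, as without saline LCA replicate 1, with a sign that turned in 5 alternatives. Trp53inp1, a p53 target, had an interaction of -1.41 (SE 0.52), or -1.77 without saline LCA replicate 1.

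The genes with the strongest flow change averaged over both treatments were chosen on the differences that also make up the interaction, so the sign of their interactions is given as a description. Prrt4, a proline-rich transmembrane protein, had 5.69, 5.59 and 5.21 in 5Aza LCA against 8.91, 8.75 and 8.55 in 5Aza RCA, and 4.30, 4.23 and 4.17 in saline LCA against 8.63, 8.84 and 8.48 in saline RCA. Every ligated array lay below every unligated one, and no saline LCA array detected the gene. Prrt4 fell with ligation under 5Aza (-3.24, adjusted p = 8.63e-06) and at least 18.2-fold under saline (adjusted p = 2.46e-07). Its interaction was 1.18 (SE 0.26, adjusted p = 0.308), and 1.21 without saline LCA replicate 1. Klk10, a kallikrein-related peptidase, had 5.91, 5.43 and 5.53 in 5Aza LCA against 8.84, 8.91 and 8.77 in 5Aza RCA, and 6.49, 4.26 and 4.24 in saline LCA against 8.99, 9.11 and 8.69 in saline RCA. It fell under 5Aza (-3.21, adjusted p = 0.0183) and under saline (-3.94, adjusted p = 0.00126), and saline LCA replicate 1 lay above the 5Aza LCA arrays while the other 2 lay below them. Its interaction was 0.72 (SE 0.67), and 1.47 without replicate 1.

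Other genes with the most negative average flow change were Serpina1a, a protease inhibitor with near-identical copies (interaction 0.61, 1.30 without saline LCA replicate 1), and Plekha6, a pleckstrin homology domain protein (1.31, 1.83 without it). Those with the most positive average were Aif1, the myeloid signalling adaptor Tyrobp (-1.57), the lysosomal leukocyte protein Laptm5 (-1.58), the macrophage lectin Clec10a (-0.82) and the beta-globin Hbb-bs (-1.36). Without that array these were -2.24 for Tyrobp, -2.06 for Laptm5, -1.70 for Clec10a and -1.89 for Hbb-bs. Standard errors in these 6 other genes lay between 0.64 (Plekha6) and 1.57 (Hbb-bs), and none passed with all arrays. The signs of Klk10, Serpina1a, Laptm5, Clec10a and Hbb-bs turned with the macrophage level as a covariate. Laptm5 is itself among the markers averaged into that level, so its turn is partly built in.

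The remaining lists had medians between -0.31 and 0.47. Circadian clock genes had a median of 0.47 (13 tested of 17, 10 positive), and 0.82 without saline LCA replicate 1, with 4 called positive, against 5% of all genes. Cry2, a repressor of the clock, had 6.42, 6.00 and 6.75 in 5Aza LCA against 5.84, 6.29 and 6.25 in 5Aza RCA, and 5.90, 5.55 and 5.13 in saline LCA against 6.86, 6.27 and 6.51 in saline RCA. Groups overlapped under 5Aza and not under saline. It fell with ligation under saline (-1.02, adjusted p = 0.0314), and its interaction was 1.28 (SE 0.37) and 1.47 without that array. Adventitial fibroblast and matrix genes had a median of 0.39 over 19 of 20, or 0.48 without that array. Of these genes 14 were positive, 4 at an unadjusted p under 0.05, against 4.82% of all genes. Mfap5, a protein of elastic microfibrils, fell with ligation under 5Aza (-1.64, adjusted p = 0.042) and under saline (-2.99, adjusted p = 0.000444), with an interaction of 1.36 (SE 0.41, 1.76 without that array). Genes of oxidative stress had -0.31 (17 of 20), which turned to 0.00 where genes had to be detected on all 12 arrays and to 0.10 with the macrophage level as a covariate. Notch genes had -0.04 (13 of 16), matrix proteases -0.06 (17 of 20), cholesterol genes -0.08 (8 of 16) and immediate early genes 0.05 (14 of 16), each with a sign that turned under several alternatives. With saline LCA replicate 1 left out the medians were -0.04 for Notch, -0.38 for matrix proteases, -0.19 for cholesterol, 0.35 for immediate early genes and -0.39 for oxidative stress. Stress chaperones had 0.10 (14 of 15), ribosomal proteins -0.15 (14 of 20), the respiratory chain 0.11 (19 of 20), and Schwann and neuronal genes 0.28 (4 of 15), or 0.60 for the last without that array. T and NK cell markers had -0.18 (4 of 17), and -0.11 without that array. Erythroid and platelet markers had -0.26 (7 of 11), and -0.51 without it. The signs of the T and NK cell, the erythroid and platelet and the respiratory chain medians each turned in 2 alternatives. No B cell marker was tested.

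**Figure D5:**
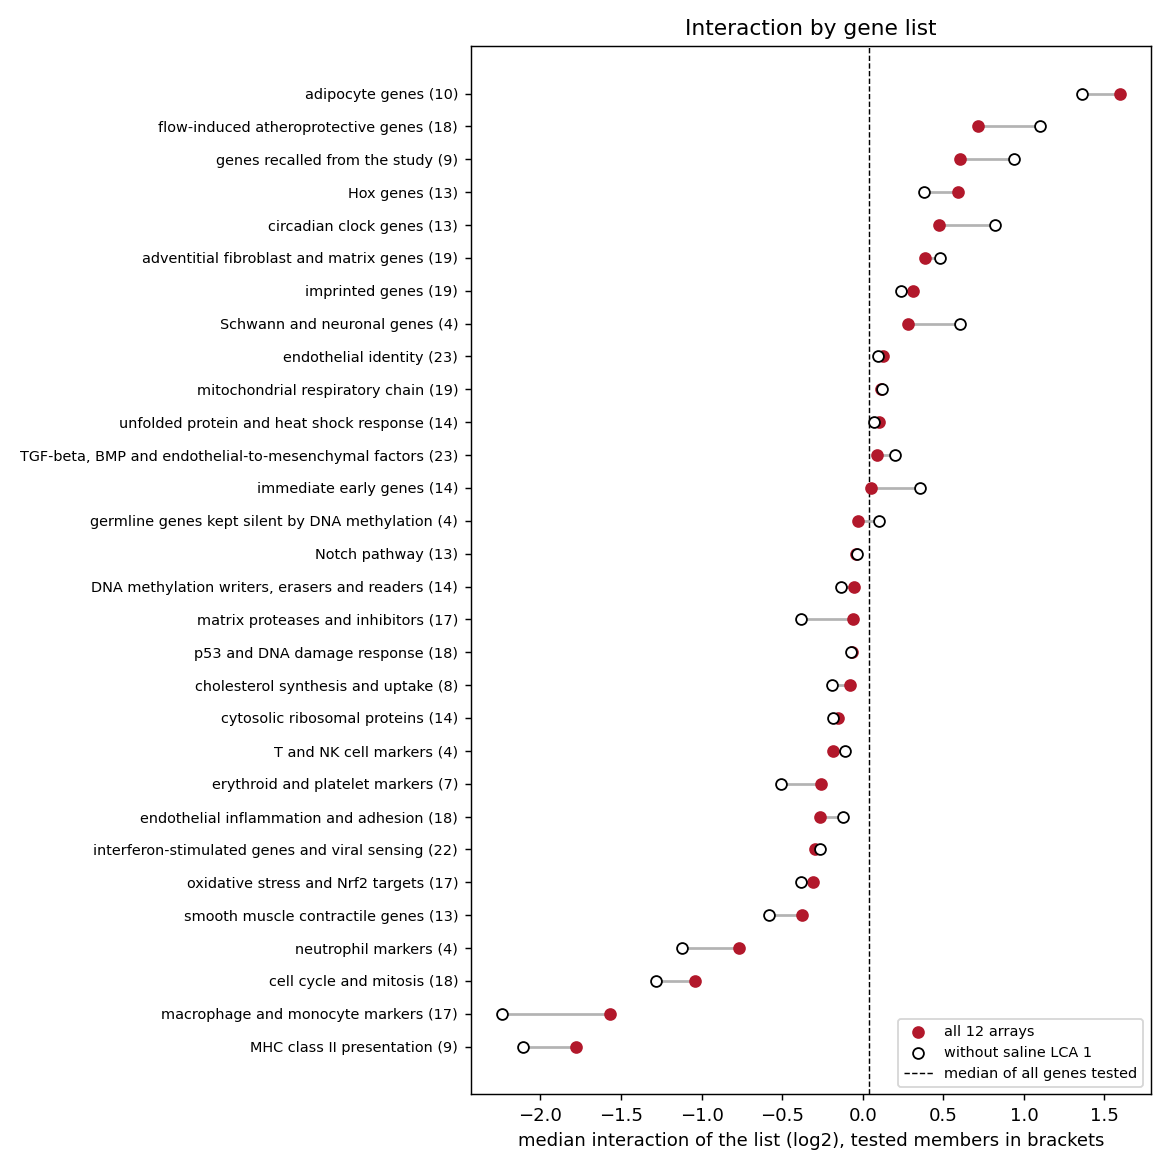
Median interaction of the tested members of each gene list with all 12 arrays and without saline LCA replicate 1. The median over all genes is 0.04 with all arrays. Adipocyte genes have the most positive median (1.59), and MHC class II (-1.78) and macrophage genes (-1.57) the most negative.

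Over the 20 leading genes, the 10 most positive and the 10 most negative by the moderated statistic, 7 were detected on all 12 arrays and 9 had at least 1 group in which no array detected them. All 20 were called without saline LCA replicate 1, against 9.58% of all genes, and none changed sign under any alternative tried. They were chosen on the same interaction in the same arrays, so neither result is independent evidence. In Mrap, Thrsp, Cd209f, Miat and Sirt5 the flow difference passed under 5Aza. No saline array detected Mrap, Thrsp or Cd209f and 1 detected Miat, so their differences under saline are set by the background and do not measure a flow response there. In Lair1, Aspm, Cxcl10, Napsa, B4galnt1, Sdc2 and Sf3a1 it passed under saline and lay between -0.09 (Napsa) and 0.47 (B4galnt1) under 5Aza. Lair1 and Aspm were each detected on 1 array of 5Aza LCA and none of 5Aza RCA, and Cxcl10 on 3 and none. Napsa was detected on no array of 5Aza LCA and 2 of 5Aza RCA, and B4galnt1 on 2 and 1. The differences of Lair1, Aspm, Cxcl10, Napsa and B4galnt1 under 5Aza are therefore near background and do not measure a lack of flow response there.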

How the data were processed

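Samples were grouped by the labels, and the titles, which number replicates differently from the descriptions, gave the names. Unprocessed intensity values with detection p-values were deposited for 45281 probes, exported with GenomeStudio 2010.3 per the submitters' processing notes. A second deposited table, of the authors' normalized intensity values, served as an alternative. Which samples shared which of the 2 microarrays is not given in the sources used here.

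The unprocessed intensities went through normexp background correction with negative-control mean and variance estimated from detection p (offset 16), then log2 and quantile normalization. Probes with detection p under 0.05 on all 3 arrays of at least 1 group were kept (21979). Of all probes, 34885 had 1 gene symbol, 18 several and 10378 none, and 34807 matched RefSeq by gene ID. The brightest probe stood for each of 10596 genes. With limma 3.58.1 in R 4.3.3, 1 mean per group was fitted to all 12 arrays. The interaction was tested two-sided with Benjamini-Hochberg adjustment over all genes. Where no array of the lower group detected a gene, its fold is a lower bound. The bound sets the mean of the higher group against, on each array of the lower group, the larger of the gene's own signal and the lowest signal of a detected probe.

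Genes were named as the 10 most positive and 10 most negative by moderated statistic, the 5 largest of each opposite order, up to 2 members per list, all genes recalled from the study, and the 5 highest and 5 lowest in average flow. Of the last, 1 gene is not reported here. Klf2, Klf4, Nos3, Cdh5, Dnmt1, Ces1d, Thbd, Sod3, Cyp1b1, Hmox1 and Cxcr4, as well as members listed as called without saline LCA replicate 1, were named after values were seen. The members of the comparison and all lists were chosen with earlier results of these data known. The fit was also run on simulated data with independent noise and the same spread for a gene on every array. Such data hold no array that stands apart, so they do not bear on the dependence of the count on saline LCA replicate 1. Alternatives covered background, normalization, filter, probe choice, weights, replicate blocks, covariates and single arrays left out.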

Additional observations from a re-analysis of the deposited data

Results flagged for a closer look

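In 10 named genes, all ligated arrays moved 1 way from the unligated arrays under 5Aza and the other way under saline. The interaction is the test of that difference, and none of the 10 passed it after adjustment with limma. The 10 were chosen on these orders in the same arrays, so passing without saline LCA replicate 1 is not independent evidence. Some genes take such orders without any effect, and how many was not tested.

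Higher in ligated arteries under 5Aza and lower under saline were Scd1 (interaction 2.92), Dync2h1 (2.38), Amy2a5 (2.20) and Coch (2.15). Of these, Scd1, Dync2h1, Amy2a5 and Coch passed without saline LCA replicate 1. Adipoq (2.62) also has this order, but 1 of 6 saline arrays detected it, so its saline order is one of values near background. It did not pass, and its 3 arrays in 5Aza LCA differed from each other more than those of the other genes here.

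Lower in ligated arteries under 5Aza and higher under saline were Actg2 (-3.13), Mettl6 (-1.70), Fes (-1.42), Dcaf6 (-1.37) and Helz (-1.33). Without saline LCA replicate 1, Actg2, Mettl6, Dcaf6 and Helz passed and Fes did not.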

How the results depend on the processing

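The count of 0 interacting genes held in 27 of 31 alternatives, among them the authors' normalized table, other background and normalization settings, detection on all 12 arrays, other probe choices, group weights, both covariates and an adjusted p of 0.10. The adjusted p of 0.10 and a minimum fold of 1.5 were applied to the main fit, where the smallest adjusted p was 0.206. They could therefore give only 0. The count became 1 with no detection filter and 1 with a trended, robust prior, in both cases Mrap. Array weights gave 847 genes, of which 796 were also called without saline LCA replicate 1, the array with the lowest weight (0.186). Leaving out 1 array gave 0 to 1015 genes. In fits chosen after seeing the data and without saline LCA replicate 1, requiring detection on all 12 arrays gave 737 genes, the macrophage level as a covariate 50 and the adipocyte level 571. These levels lie mostly between groups (83.2% and 79% of their variance), so as covariates they also take up the interaction.

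With the replicate number as a block, 0 genes passed in each of 3 fits. After group means were removed, same-numbered samples correlated at -0.0277 to 0.0561 within a treatment and at -0.0914 to 0.147 across treatments, so the numbers are not shown to pair samples.

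Of 2781 values of 94 named genes under the alternatives, 16 reversed, and the cause was not tested. With the macrophage covariate Hbb-bs had 0.27, Ddx4 0.0365, Clec10a 1.02, Zfp46 -0.00906, Cmklr1 -0.77, Laptm5 0.18, Klk10 -0.29 and Serpina1a -0.57. Of these, Laptm5 is itself part of the covariate. With the adipocyte covariate Prf1 had 0.13, Syt7 -0.0367 and Xlr4a -1.44. With the block within treatment Ddx4 had 0.0471 and Clec10a 0.0679. Another probe of Hbb-bs gave 0.79, both where detection on all 12 arrays was required and where each probe was tested by itself. Leaving out 1 array put Ddx4 between -0.19 and 0.0617, the higher value without 5Aza LCA replicate 2.

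Medians of 15 of 30 lists kept their sign under all alternatives. With 3 pools per group the median 95% half-width of 0.81 limits what can be told from 0.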

Other observations

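Among 3829 detected probes without a single gene symbol, 0 passed the interaction test with limma (smallest adjusted p 0.0803), and 318 had an unadjusted p under 0.05 (8.31%). Without saline LCA replicate 1, 153 passed (4%).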
